A study of Mus musculus with 3 samples.

Results

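Gene expression in a C2C12 line carrying a short hairpin RNA (shRNA) against FoxO3 was compared with that in a C2C12 line carrying an shRNA against FoxO4. C2C12 is a mouse myoblast line, cells of the muscle lineage that divide in culture and can be made to fuse into muscle fibres. Both lines were grown in DMEM under puromycin, from colonies picked for the strongest depletion of the intended FoxO gene. Each line is therefore a selected colony, measured on 1 Affymetrix array, and hairpin and colony cannot be told apart. The series holds 3 arrays, and the remaining array is from a line with an shRNA against FoxO1. It is used here only to show where it lies and to set an alternative signal limit. Members were the probe sets with 1 gene symbol and a signal of 1000 or more on at least 1 of the 2 arrays. They numbered 12502 of 45101 probe sets and covered 8801 of the 18194 genes on the arrays. With no replicates there is no test, no standard error and no p-value, and every count below is a count by size.

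FoxO1, FoxO3 and FoxO4 are forkhead transcription factors that insulin and growth factor signalling holds in the cytoplasm through phosphorylation by Akt. When that signalling is weak they enter the nucleus and bind a shared core motif, and their known targets include inhibitors of the cell cycle, antioxidant enzymes, autophagy genes and, in muscle, ubiquitin ligases of atrophy. In myoblasts, FoxO factors are known to act on growth, fusion and the choice of fibre type.

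The values are deposited signals, and on each array their trimmed mean is 1000. The median signal was 387 on the FoxO3-labelled and 398 on the FoxO4-labelled array. All differences below are log2 signal on the FoxO3-labelled array minus log2 signal on the FoxO4-labelled array, after raising signals below each array's 20th percentile (73.1 and 77.3) to that floor. The value of a gene is the median over its member probe sets. The ratio of signal at the 3' end to that at the 5' end, a sign of how intact the RNA or its copies were, was 5.50 for Actb and 5.90 for Gapdh on the FoxO3-labelled array, beside 3.45 and 2.23 on the FoxO4-labelled array. This gap runs with every comparison below, and its part in them was not tested.

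The hairpin targets went against their labels in part. Foxo3 had 2 member probe sets. One Foxo3 probe set read 1573 on the FoxO3-labelled array and 386 on the FoxO4-labelled array, a log2 difference of 2.03. The other Foxo3 member read 1047 and 1016, so neither Foxo3 member was lower on the FoxO3-labelled than on the FoxO4-labelled array. Both were lower than on the FoxO1-labelled array, where they read 2380 and 1357. A dim Foxo3 probe set read 82.0 and 96.4, with 174 on the FoxO1-labelled array. Foxo4 had no member probe set. Its probe sets read 163 and 345 on the FoxO3-labelled array against 763 and 80.4 on the FoxO4-labelled array, and thus went opposite ways. On the FoxO1-labelled array these Foxo4 probe sets read 188 and 1799. Foxo1, which neither line targeted, was higher on the FoxO4-labelled array in both of its member probe sets, at 1827 against 563 and at 1573 against 439. Both Foxo1 members were highest on the FoxO1-labelled array, at 2778 and 2221, although that line targeted Foxo1. The arrays are therefore named by label throughout, and no direction is given as the effect of a knockdown.

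Muscle identity was checked on markers of the myoblast. Cdh15, the cadherin of muscle precursors, read 10814 and 10638 on the arrays labelled FoxO3 and FoxO4, and Myf5, a myogenic determination factor, read 1758 and 1398. Myod1, the other determination factor, read 2140 and 713, with a dimmer probe set at 623 and 11.0. Myog, which starts differentiation, read only 653 and 159. Des (desmin) read 7433 and 272 in its bright probe set, and 449 and 542 in the other. Both lines thus carried myoblast markers. Cdh15 was nearly equal, while Myod1, Myog and the bright Des probe set were lower on the FoxO4-labelled array. Among markers of other lineages, Ptprc of blood cells lay at 33.7 and 20.5 in its probe sets on the FoxO3-labelled array and at 17.9 and 24.0 on the other. Adipoq of fat cells read 144 and 35.2, and Pecam1 of endothelium 71.3 and 111. Other markers were brighter, with Kdr of endothelium at 626 and 1188, Sp7 of osteoblasts at 1905 and 1197, and the brighter Syp probe set, of neurons, at 594 and 404.

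Probe sets of the same gene are the closest thing to a repeat measurement, although they share RNA and array. Among the 1941 genes with exactly 2 member probe sets, the differences of the pair correlated across genes with Pearson's r of 0.352, and the standard deviation of the gap between them was 1.498. The pair had the same sign in 61.8% of genes. Where both probe sets reached 4000 on the brighter array, r was 0.771 over 289 genes and the same sign was found in 77.9%. At 16000 or more, over 38 genes, r was 0.921, and 86.8% shared a sign. A single dim probe set past 2-fold is thus a weak statement here, and genes with several agreeing probe sets carry most of the account. Just outside the signal limit, at 900 to 1000, 43.8% of 1047 probe sets were at least 2-fold apart, and just inside it, at 1000 to 1100, 45.9% of 905.

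**Figure D1:**
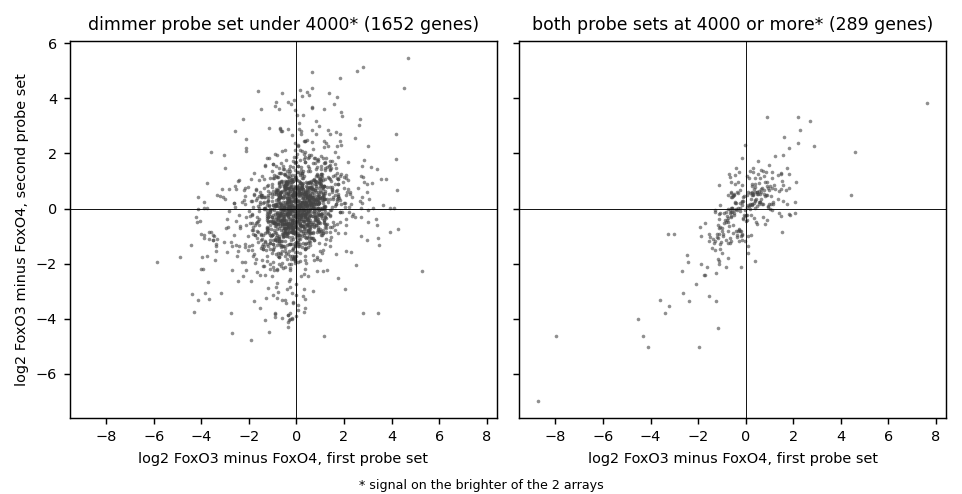
Log2 difference (FoxO3-labelled minus FoxO4-labelled array) of the first against the second probe set of each gene with exactly 2 member probe sets, 1 point per gene. The right panel holds the 289 genes whose probe sets both reached 4000 on the brighter of the 2 arrays (r of 0.771), where points fall mostly at lower left and upper right; the left panel holds all other genes, as a round cloud.

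Of the 8801 genes, 1376 were at least 2-fold higher on the FoxO3-labelled array (15.6%) and 1309 at least 2-fold higher on the FoxO4-labelled array (14.9%), with a median difference of 0.0057 over all genes. These shares are the background for every gene list below. Of the 2671 genes with 2 or more member probe sets, 110 had every one at least 2-fold higher on the FoxO3-labelled array (4.12%). In the other direction 152 had every one at least 2-fold higher on the FoxO4-labelled array (5.69%), and 97 had probe sets past 2-fold in both directions. By median alone, 327 of the 2671 were at least 2-fold higher on the FoxO3-labelled array, and 265 of these had all probe sets of 1 sign. The same holds for 314 of the 358 that were at least 2-fold higher on the FoxO4-labelled array. The signal limit favours genes that differ, since a gene could pass it through 1 array alone. These counts therefore describe the arrays and lend no support of their own. With the limit set instead on the FoxO1-labelled array, which plays no part in the difference, 1113 and 1069 of 8044 genes were past 2-fold and 74 and 118 had agreeing probe sets.

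**Figure D2:**
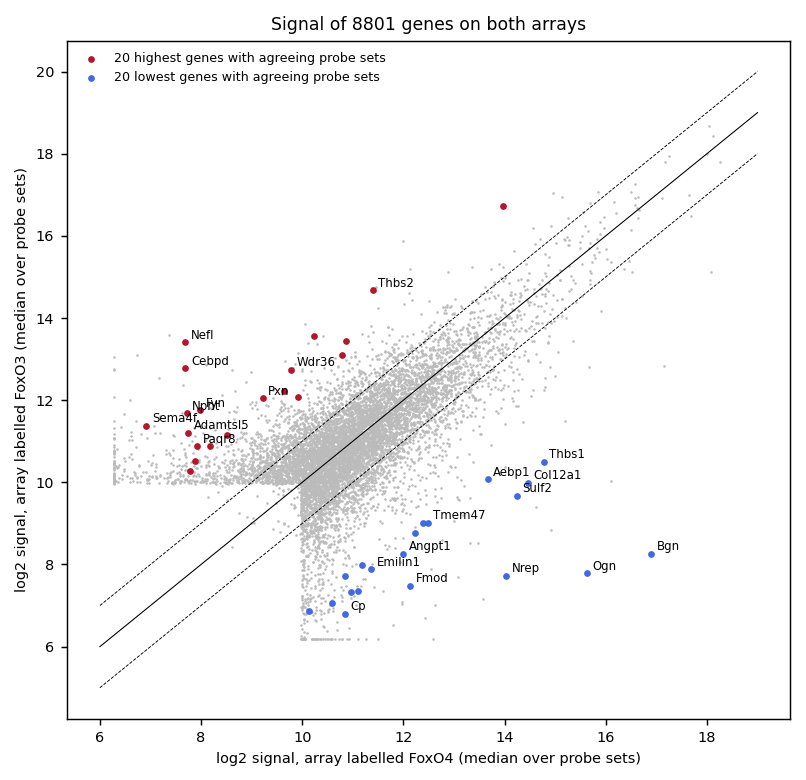
Log2 signal of 8801 genes on the FoxO4-labelled array (x axis) and the FoxO3-labelled array (y axis), with the line of equality and dashed lines at 2-fold. Red and blue points mark the 20 highest and 20 lowest genes with agreeing probe sets, with Bgn and Ogn furthest from the line; the empty corner at lower left is the signal limit of 1000 on at least 1 array.

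The gene furthest up on the FoxO3-labelled array, by its probe set nearest to 0, was Cebpd, a C/EBP transcription factor induced by inflammatory signals. Its probe sets read 14333 and 3435 there, 553 and 40.4 on the FoxO4-labelled array, and 927 and 815 on the FoxO1-labelled array. Both Cebpd probe sets were high on the FoxO3-labelled array alone. Sema4f, a semaphorin of the axon guidance family, read 1790 and 3956 against 77.1 and 190, with 134 and 21.6 on the FoxO1-labelled array. Nefl, the light neurofilament chain of neurons, read 16178 and 7275 against 82.3 and 515, and only 34.4 and 55.6 on the FoxO1-labelled array. Both genes were thus near the floor on at least 1 probe set of each other array. Npnt, the matrix ligand nephronectin, read 3956 and 2727 against 569 and 51.0. Its remaining probe sets were under 1000 on both arrays and did not all go the same way, from -2.34 to 3.45.

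Several high genes act on adhesion, the cytoskeleton or growth. Pxn, the focal adhesion adaptor paxillin, read 3308 and 5404 against 536 and 659, differences of 2.63 and 3.04, while a dim Pxn probe set differed by -1.86. Fyn, a Src family kinase, read 4169 and 2845 against 714 and 89.4. Cdc42ep4, an effector of the GTPase Cdc42, read 1261 and 1226 against 231 and 209. Rras2, a Ras-related GTPase, stood at 10014 and 7699 against 2166 and 1460. Hmga2, a chromatin protein of embryonic and proliferating cells, read 15611 and 9342 against 641 and 2272, and 1519 and 1290 on the FoxO1-labelled array, so its high signal was on the FoxO3-labelled array alone. A dim Hmga2 probe set went the other way, at 118 against 340. Sox11, a transcription factor of embryonic progenitors, read 1007 and 2164 against 124 and 452, with a dim probe set at -1.14. Wdr36 and Rrs1, both of which act in ribosome assembly, differed by 2.72 to 3.19 and by 1.85 to 2.47. Paqr8, a membrane progesterone receptor, differed by 2.68 and 3.24 in its members, and by -0.10 and 0.33 in its dimmer probe sets. Adamtsl5, a secreted protein related to the ADAMTS proteases, differed by 2.73 and 4.20.

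At the other end stood Ogn (osteoglycin) and Bgn (biglycan), proteoglycans of the collagen matrix. Ogn read 30.7 and 666 on the FoxO3-labelled array against 30699 and 83946 on the FoxO4-labelled array, and 18573 and 94656 on the FoxO1-labelled array. The 3 Bgn probe sets read 1069, 306 and 191 against 100960, 122062 and 142069, with 130071 to 153803 on the FoxO1-labelled array. Both genes were bright on the other 2 arrays and dim on the FoxO3-labelled array. Nrep, a small protein of regenerating nerve and wound fibroblasts, read 67.2 and 618 against 18199 and 15377, again with high values of 9351 and 9066 on the FoxO1-labelled array. Sulf2, which trims sulfate from heparan sulfate, read 808 and 832 against 13988 and 26965, although its dimmest probe set read 946 against 69.9.

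Further low genes were secreted or sat at the cell surface. Aebp1, a collagen-binding protein of the matrix, read 1114 and 1038 against 11642 and 14558. Angpt1, a ligand of the endothelial Tie2 receptor, read 66.3 and 1298 against 1288 and 13029.8. Cxcl12, a chemokine that draws cells bearing Cxcr4, read 122 and 362 in its members against 1097 and 3065. Efnb1, a membrane ligand of Eph receptors, read 151 and 179 against 3152 and 1532. Cd24a, a surface glycoprotein of progenitor cells, read 135, 21.8 and 185 against 1723, 1131 and 1535. Its FoxO1-labelled signals were 45.0, 69.0 and 843, so for Cd24a they lay near the FoxO3-labelled array in 2 probe sets and between the arrays in the last. Maf, a basic leucine zipper transcription factor, differed by -2.72 and -4.53, but its dimmer probe sets spread from -2.77 to 2.25. Cp, the copper-binding oxidase ceruloplasmin, differed by -4.30 and -3.77 in its members and from -3.05 to 1.06 in its other probe sets. Car3, a carbonic anhydrase of muscle and fat, differed by -3.85 and -3.06. Tmem47, Plaat3, Ddhd1 and Gulp1 complete the lowest 20 together with Col12a1, Thbs1, Fmod and Emilin1, which are described with the matrix genes.

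The FoxO1-labelled array was placed beside these differences. Of the 152 genes with agreeing probe sets higher on the FoxO4-labelled array, it lay nearer to the FoxO4-labelled array for 108 (71.1%) and nearer to the FoxO3-labelled array for 44. For the 110 genes higher on the FoxO3-labelled array the numbers were 67 (60.9%) and 43. Over all 8801 genes it lay nearer to the FoxO4-labelled array for 53.5%. These are places of 1 array between 2 others, with no test.

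**Figure D3:**
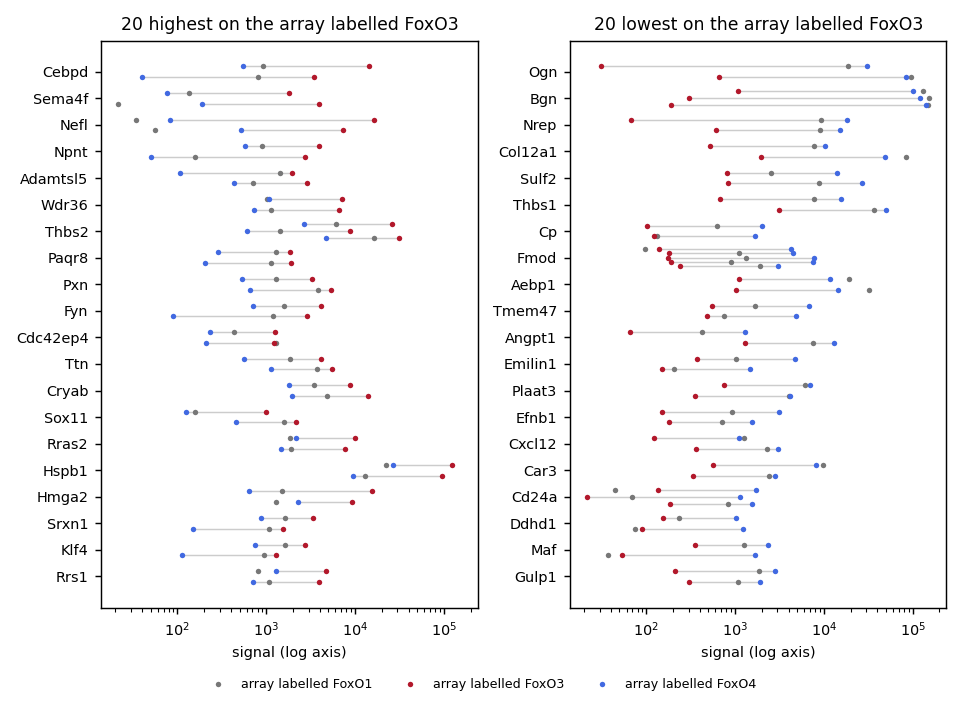
Signal on a log axis of every member probe set of the 20 highest (left) and 20 lowest (right) genes with agreeing probe sets, with 1 line per probe set and a point for each array. For Ogn, Bgn, Nrep and Thbs1 the FoxO1-labelled points sit with the FoxO4-labelled ones, while for 2 of the 3 Cd24a probe sets they lie near the FoxO3-labelled ones.

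**Figure D4:**
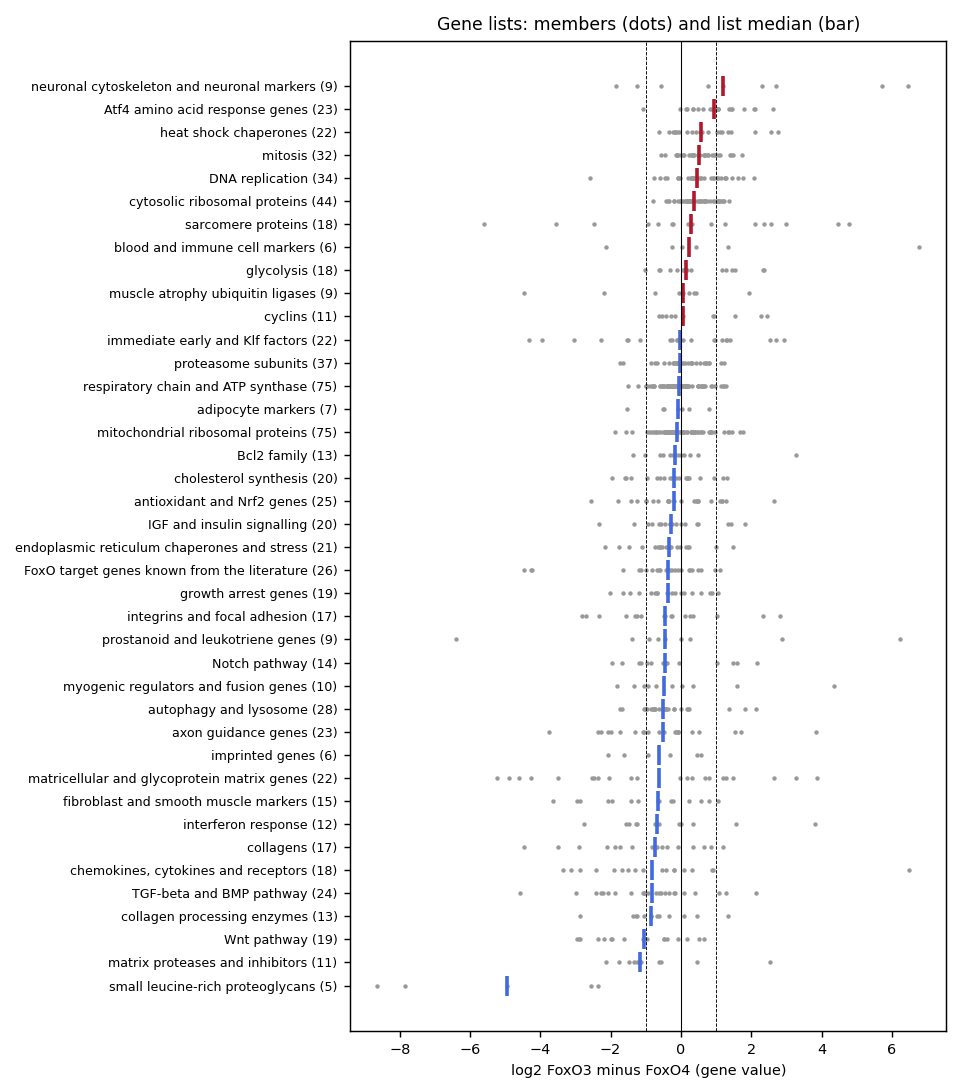
Log2 difference of every member gene (dots) of the gene lists with 5 or more members, with the list median as a bar and the number of members in brackets; dashed lines mark 2-fold. Medians run from -4.94 for the small leucine-rich proteoglycans to 1.20 for the neuronal list.

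Matrix genes formed a large block on the low side. Small leucine-rich proteoglycans bind collagen fibrils and set their spacing. Of 10 such genes on the arrays 5 passed the signal limit, and all 5 were at least 2-fold lower on the FoxO3-labelled array, with a median of -4.94, or -2.40 over all 10 with no limit on signal. The 5 member probe sets of Fmod (fibromodulin) read 141, 179, 175, 192 and 239 against 4300, 4504, 7755, 7491 and 3056. Each of these Fmod probe sets was lower on the FoxO3-labelled array. Aspn (asporin) read 248 and 262 against 1189 and 1425. Dcn (decorin) read 1323 against 7871 in its member, but its dim probe set read 468 against 81.4, and on the FoxO1-labelled array the member read only 46.8.

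Collagens and the enzymes that mature them lay on the same side. Of 17 collagen genes that passed the limit, 7 were at least 2-fold lower on the FoxO3-labelled array and 1 higher, with a median of -0.75. Col12a1, a collagen that lies along fibrils, read 523 and 1985 against 10424 and 49318, while its dim probe sets went the other way at 1.45 and 2.42. Col6a2, of the microfibrils around muscle fibres, read 2190 and 272 against 8455 and 8870. Col5a2, which starts fibrils, read 37366 and 2317 against 114112 and 10129. Basement membrane collagens were divided. Col4a5 was lower, at -1.40 and -2.08, while Col4a1 stood at 0.39 and 0.32 and Col4a2 at -0.08. Of 13 processing enzymes 5 were lower and 1 higher. Lox, the lysyl oxidase that crosslinks collagen and elastin, read 14464 and 3567 against 75344 and 36224. P3h1, a prolyl hydroxylase, differed by -1.33 and -1.20, and P4ha2, of another prolyl hydroxylase, by 1.35.

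Glycoproteins of the matrix were split. Of 22 genes 11 were at least 2-fold higher on the FoxO4-labelled array and 6 on the FoxO3-labelled array, with a median of -0.63. Thbs1 (thrombospondin 1) read 676 and 3123 against 15435 and 50551. Its relative Thbs2 went the other way in all 3 probe sets, at 26134, 8782 and 31123 against 2694, 606 and 4767. The paired thrombospondins thus stood in opposite order on the 2 arrays, with FoxO1-labelled values of 7730 and 36458 for Thbs1 and 1428 to 16515 for Thbs2. Emilin1, of elastic fibres, read 369 and 151 against 4709 and 1482. Sparc, a collagen-binding protein, read 2859, 31443 and 683 against 37396, 130856 and 1446. Ccn1, a matricellular protein, read 5497 and 989 against 15900 and 8866. Its relatives did not go one way, with Ccn2 at 37463 against 13557 and the Ccn4 member at 5728 against 15464. Components of the basement membrane were among the higher ones, with Nid1 (nidogen 1) at 60265 against 4093 and Lamb1 (laminin beta 1) at 2180, 13220 and 1921 against 67.8, 2104 and 991. A dim Lamb1 probe set stood at -1.21. The median of this list turned to 0.31 when a signal of 1000 was required on both arrays.

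Proteases, inhibitors and adhesion receptors followed. Of 11 protease and inhibitor genes 7 were at least 2-fold lower on the FoxO3-labelled array and 1 higher, with a median of -1.17. Adamts5, an aggrecan-cleaving enzyme, read 405, 641 and 1026 against 1115, 2785 and 5362. Timp3, a metalloproteinase inhibitor bound to the matrix, was the gene on the other side, and its members read 841, 1001 and 7044 against 1123, 147 and 1205. Among 17 integrin and focal adhesion genes 7 were lower and 3 higher, with a median of -0.46. Sdc2, a heparan sulfate syndecan, read 4171, 698 and 1225 against 27252, 7556 and 5164. Itga3, a laminin-binding integrin, read 259 and 3592 against 2925 and 7952, with a dim probe set at 1.59. Itga7, the laminin receptor of muscle, read 20688 against 4124 and lay with Pxn on the higher side.

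Fibroblast and smooth muscle markers moved with these matrix genes. Of 15 that passed the limit 7 were at least 2-fold lower on the FoxO3-labelled array and 1 higher, with a median of -0.66. The summed signal of all 23 markers was 372575 on the FoxO3-labelled array, 873849 on the FoxO4-labelled array and 700023 on the FoxO1-labelled array. Of them 3, 1 and 1 were under the floor. Acta2 (smooth muscle actin) read 35744 against 278209 in its bright probe set, and 46.3 and 54.2 against 993 and 738 in the others. Bright genes weigh most in a summed signal, so Acta2 alone carried a large part of that gap. Of the 15 members 7 were under 2-fold. Tagln, an actin-binding protein of smooth muscle, read 1337 against 16543. Pdgfrb, a receptor of mesenchymal cells, read 459 and 1022 against 7263 and 3481. Their part in the matrix differences was not tested. In bulk RNA, fewer cells of a type and less RNA per cell cannot be told apart.

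Signalling genes were counted as well, and any link between them and the matrix genes was not tested. In the transforming growth factor beta (TGF-beta) and bone morphogenetic protein list, 11 of 24 members lay 2-fold or more lower on the FoxO3-labelled array and 3 higher, with a median of -0.81, or -0.20 over all 31 genes on the arrays. Among ligands and their modulators, Fstl1, a secreted follistatin-like protein, read 2513 and 20617 against 13905 and 67034. Inhbb, which forms activin B, read 885 and 791 against 4692 and 2013. Of the receptors, Acvr2a, a type 2 activin receptor, read 1939 and 125 against 4771 and 1180. Of the effectors, Smad3, which carries the TGF-beta signal to the nucleus, differed by -3.33 and -1.11 in its members and by 0.37 in a dimmer probe set. Smad1, an effector of bone morphogenetic proteins, differed by 0.74 and 1.85, and Ltbp1, which stores latent TGF-beta, by 2.14 in 1 probe set.

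In the Wnt list 11 of 19 members lay 2-fold or more lower on the FoxO3-labelled array and 0 higher, with a median of -1.04, beside the background of 14.9% and 15.6%. With the limit set on the FoxO1-labelled array it was 8 and 2 of 18. Fzd1, a Wnt receptor, read 352 and 1696 against 1553 and 8028. Ctnnb1 (beta-catenin), which carries the Wnt signal, read 17161, 25.4 and 1969 against 40383, 2863 and 7691. All 3 Ctnnb1 probe sets were lower, with log2 differences from -5.29 to -1.23. Dkk3, a secreted protein related to Wnt antagonists, read 501 and 448 against 1573 and 2237. Tcf7l1, a DNA-binding repressor of the pathway, differed by -0.91 and -3.81.

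Genes of the sarcomere, the contractile unit of muscle, did not go one way. Of 41 on the arrays 18 passed the limit, 7 were at least 2-fold higher on the FoxO3-labelled array and 3 on the FoxO4-labelled array, with a median of 0.29. Ttn (titin), the elastic spring of the sarcomere, read 4115 and 5485 against 566 and 1129. Myh1, a fast myosin heavy chain, read 1414 and 1619 against 12.9 and 466, with the limit that myosin heavy chains are near-identical in sequence. Des (desmin), the intermediate filament of muscle, read 7433 against 272 in its bright probe set but 449 against 542 in the other. Mylpf, a fast myosin light chain, read 1795 against 80.4. On the opposite side, Tnnt1, the slow troponin T, read 128 against 6281 and Myl1, an alkali light chain, 201 against 2345. Tpm1, a tropomyosin also made in non-muscle cells, read 3239 and 8057 against 20734 and 39299. Of 10 regulators of myogenesis and fusion 2 were higher and 3 lower, with a median of -0.48. Myod1 stood at 1.59 and Msc (musculin), a repressor of MyoD, at 4.36. The Id proteins, which bind and block MyoD partners, were lower: Id1 at -1.05 and Id3 at -1.33, while the Id2 members disagreed at -3.88 and 0.24.

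Most proliferation genes were within 2-fold. Of 34 DNA replication genes 10 were at least 2-fold higher on the FoxO3-labelled array, 1 was lower (Rfc3 at -2.60) and 23 were under 2-fold, with a median of 0.46. Of 32 mitosis genes 6 were higher, 0 lower and 26 under 2-fold, with a median of 0.51. Mcm4, of the helicase that opens DNA for copying, read 11442 and 4050 against 3394 and 1445, with 1076 and 782 on the FoxO1-labelled array. Rrm2, which makes deoxynucleotides, read 4009, 24821 and 12020 against 4029, 10313 and 3633, so 1 of its 3 probe sets was level. Cks2, a partner of cyclin-dependent kinases, read 26401 and 13479 against 9345 and 5593. Prc1, of the mitotic spindle midzone, read 3210 and 8578 against 947 and 4052. Among 11 cyclins 3 were higher and 0 lower. Ccne1 (cyclin E1), of the entry to S phase, read 2543 and 2896 against 1083 and 806. The count of higher mitosis genes is close to the background share of 15.6%, while the count of lower ones is under 14.9%. The E2F motif TTTCCCGC, bound by factors of S phase entry, was found on either strand in 5 of 28 replication gene promoters (17.9%), beside 2.57% of the measured genes and 1.24% of all genes. Of these holders Pold1 stood at 1.025 and Rfc3 at -2.60, and the rest were under 2-fold. Among all genes past 2-fold, 26 of 1115 higher on the FoxO3-labelled array held it (2.33%). For those higher on the FoxO4-labelled array it was 19 of 1006 (1.89%). Neither share exceeds that of the measured genes. Of 19 growth arrest genes 4 were lower, 1 higher and 14 under 2-fold, a lower count near the background. Their median was -0.38, or -0.08 over all 23 with no limit and -0.18 with the limit on the FoxO1-labelled array. Gas1, named for growth arrest, read 2630 and 1358 against 14504 and 3981.

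Many targets of the amino acid response were higher on the FoxO3-labelled array. Atf4 is a transcription factor whose translation rises when amino acids or protein folding fail, and it induces genes for amino acid synthesis and import. Of 23 such genes 11 were at least 2-fold higher on the FoxO3-labelled array, 1 was lower (Ddit4 at -1.07) and 11 were under 2-fold, with a median of 0.95. The same count, 11 and 1, was found of 24 genes with the limit set on the FoxO1-labelled array. Phgdh, the first enzyme of serine synthesis, read 13731, 22222, 33939 and 10919 against 7033, 9482, 12122 and 2244. All 4 Phgdh probe sets were higher there, by 0.97 to 2.28. Slc7a1, a carrier of arginine and lysine, read 9796 and 3833 against 3563 and 1389. Stc2, a secreted glycoprotein of stressed cells, read 1158 and 1596 against 431 and 244, with a dim probe set at -1.62. Cebpg, a dimer partner of Atf4, read 2962 and 1549 against 880 and 738, with a dim probe set at -2.31. For 9 of the 12 genes past 2-fold, the FoxO1-labelled array lay nearer to the FoxO3-labelled array. The Atf4 gene itself read 17283 and 54884 against 8419 and 30885 in its members, differences of 1.04 and 0.83. On the FoxO1-labelled array these Atf4 probe sets read 7593 and 29229. Ddit3, a stress factor that is often named with Atf4, was nearly level at 0.15, and the list of endoplasmic reticulum chaperones and stress genes had 2 of 21 genes higher, 4 lower and a median of -0.35. Canx (calnexin), a chaperone of that compartment, was lower at -0.55, -2.15 and -2.20.

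The promoters of 2 genes of this list are shown because they hold the C/EBP-ATF response element to which Atf4 binds, searched as TGATGNAAN on both strands. They were picked after their values were seen. Chac1, which breaks down glutathione, had 1 probe set at 3371 against 981. Trib3, a pseudokinase, had 1 member at 1185 against 193 and a dimmer probe set at 940 against 517. The sequences run from 250 bases before to 50 after the RefSeq gene start (GRCm38.p6), at chr2:119350992-119351291, plus strand and chr2:152344011-152344310, minus strand, with the element in capitals.
Chac1: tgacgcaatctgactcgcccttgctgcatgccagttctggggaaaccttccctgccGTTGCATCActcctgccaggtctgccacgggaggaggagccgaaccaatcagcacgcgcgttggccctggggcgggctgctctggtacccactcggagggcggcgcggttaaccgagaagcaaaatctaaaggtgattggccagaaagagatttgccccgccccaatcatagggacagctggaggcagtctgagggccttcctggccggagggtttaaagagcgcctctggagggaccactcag
Trib3: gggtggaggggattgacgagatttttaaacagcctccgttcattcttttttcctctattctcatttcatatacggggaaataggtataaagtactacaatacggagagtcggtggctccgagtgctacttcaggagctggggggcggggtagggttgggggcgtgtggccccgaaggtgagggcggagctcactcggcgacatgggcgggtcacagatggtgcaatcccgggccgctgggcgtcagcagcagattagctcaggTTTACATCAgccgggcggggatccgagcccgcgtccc
Of the 21 list genes with a promoter in the RefSeq table, 6 held the element (28.6%), beside 2.51% of 7165 measured genes and 4.50% of all 27025 genes. Besides Chac1 and Trib3 these were Nupr1 at 0.947, Aars at 0.882, Asns at 0.625 and Gars at 0.348. The 2 promoters shown are thus the only holders of this list past 2-fold. The element was part of how such genes became known, so its share in this list is a description. Among all genes past 2-fold it was found in 32 of 1115 higher on the FoxO3-labelled array (2.87%). For those higher on the FoxO4-labelled array it was 23 of 1006 (2.29%). In agreeing genes the counts were 2 of 89 (2.25%) and 3 of 116 (2.59%), and all these shares are near that of the measured genes.

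Immediate early genes, which serum and growth factors induce within minutes, were divided. Of 22 in the list with Klf factors, 7 were at least 2-fold higher on each array. Egr1, a zinc finger factor, read 7324 against 146441, Fos 530 against 8245 and Nr4a1, an orphan nuclear receptor, 647 against 3127. Egr2 read 47.9 and 463 against 1104 and 2097. On the other side, Klf4, a Krüppel-like factor, read 2763 and 1283 against 746 and 114. Jun read 9111 and 10883 against 3222 and 4463, and Atf3, a stress-induced factor, 2682 against 353. Among the relatives of Fos, chosen after their values were seen, Fosl1 read 4546 against 781 and Fosl2 1166 and 6782 against 627 and 3369. Fos itself was thus lower, while Fosl1, Jun, Atf3 and Klf4 were higher on the same array.

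Serum response factor binds the CArG box, a run of 6 A or T bases between 2 C and 2 G bases, in many immediate early and smooth muscle genes. Its box is shown in capitals in Egr2 and in Myl9, a smooth muscle myosin light chain picked after its value was seen, which read 601 against 2362. The promoters lie at chr10:67537316-67537615, plus strand and chr2:156775214-156775513, plus strand (GRCm38.p6).
Egr2: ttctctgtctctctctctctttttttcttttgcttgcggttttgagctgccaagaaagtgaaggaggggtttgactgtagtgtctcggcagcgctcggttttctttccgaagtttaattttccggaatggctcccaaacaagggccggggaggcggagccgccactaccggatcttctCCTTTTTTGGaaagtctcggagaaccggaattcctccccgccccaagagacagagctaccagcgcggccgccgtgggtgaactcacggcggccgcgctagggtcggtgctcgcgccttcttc
Myl9: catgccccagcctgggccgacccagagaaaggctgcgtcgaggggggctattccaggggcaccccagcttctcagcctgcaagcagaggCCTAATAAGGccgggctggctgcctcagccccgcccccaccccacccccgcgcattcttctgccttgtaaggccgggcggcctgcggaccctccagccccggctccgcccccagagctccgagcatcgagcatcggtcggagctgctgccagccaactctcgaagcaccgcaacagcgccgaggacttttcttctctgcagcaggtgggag
The box was found in 5 of 116 agreeing genes higher on the FoxO4-labelled array (4.31%) and in 0 of 89 agreeing genes higher on the FoxO3-labelled array, beside 1.66% of the measured genes. Over all genes past 2-fold it was found in 18 of 1006 higher on the FoxO4-labelled array (1.79%) and in 16 of 1115 higher on the FoxO3-labelled array (1.44%), both near that background. Srf, the gene of the factor itself, also held the box and stood at 0.61 and 1.95. In the immediate early and Klf list 2 of 16 promoters held it (12.5%), those of Egr2 and Srf. In the fibroblast and smooth muscle list it was 3 of 12 (25%), with Myl9, Myl6 at -0.66 and Cnn2 at -0.215. The 2 promoters shown are those of the lowest holders, while Myl6 and Cnn2 were under 2-fold.

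Of 26 genes known from the literature as FoxO targets that passed the limit, 7 were at least 2-fold lower on the FoxO3-labelled array, 1 higher and 18 under 2-fold, beside 14.9% and 15.6% of all genes, with a median of -0.38, or -0.16 over all 35 genes with no limit on signal. None of the 6 with 2 or more member probe sets had all of them past 2-fold. Pdk4, which restrains the use of glucose carbon in mitochondria, read 85.2 against 1648, with 2044 on the FoxO1-labelled array. Pik3ip1, an inhibitor of phosphoinositide 3-kinase, read 163 against 3104 in its bright probe set. Fbxo32 (atrogin-1), the muscle atrophy ubiquitin ligase, read 70.9 against 1613 in its member, but its other probe sets differed by 2.21 and -1.88. Txnip, a thioredoxin-binding protein, read 2727 against 1266. Bcl2l11 (Bim) and Bnip3, targets in cell death and mitophagy, stood at -0.09 and 0.01, although the dim probe sets of Bcl2l11 ran from -2.98 to 1.38. Of 9 ubiquitin ligases of muscle atrophy 1 was higher and 2 lower, with a median of 0.05. Among them Nedd4 read 116, 14835 and 3323 against 1167, 44761 and 15018.

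The FoxO core motif, GTAAACA on either strand, was looked for in the same promoter windows. It was present in 3 of 89 agreeing genes higher on the FoxO3-labelled array (3.37%), in 4 of 116 higher on the FoxO4-labelled array (3.45%) and in 3.21% of the measured genes. Over all genes past 2-fold it was in 34 of 1115 higher on the FoxO3-labelled array (3.05%) and 41 of 1006 higher on the FoxO4-labelled array (4.08%). Of all promoters, 4.05% held it. Shares in the agreeing genes were thus close to the background. Among the literature targets it was present in 4 of 23 (17.4%), a share that is only a description. These were Sesn1 at -1.65, Bbc3 at -0.61, Bcl2l11 at -0.093 and Txnip at 1.11, so they did not go one way. Sesn1, a stress-induced regulator of growth, holds the motif and read 1477 against 4630, although its 3 dimmer probe sets were nearly level, from -0.08 to 0.20. The motif starts after the gene start in Sesn1 and before it in Paqr8. Both are shown with the motif in capitals, at chr10:41810324-41810623, plus strand and chr1:20917590-20917889, plus strand (GRCm38.p6).
Sesn1: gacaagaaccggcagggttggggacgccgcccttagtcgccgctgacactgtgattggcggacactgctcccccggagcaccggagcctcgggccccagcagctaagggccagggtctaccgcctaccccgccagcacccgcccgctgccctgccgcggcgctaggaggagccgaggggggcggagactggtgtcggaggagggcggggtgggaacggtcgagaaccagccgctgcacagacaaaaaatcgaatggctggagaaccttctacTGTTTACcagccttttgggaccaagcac
Paqr8: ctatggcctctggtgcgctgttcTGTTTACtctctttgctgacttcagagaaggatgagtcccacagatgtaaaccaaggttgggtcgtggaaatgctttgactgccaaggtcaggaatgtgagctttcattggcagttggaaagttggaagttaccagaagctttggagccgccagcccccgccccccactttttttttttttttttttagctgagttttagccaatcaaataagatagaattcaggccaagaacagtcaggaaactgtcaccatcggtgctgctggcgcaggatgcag
A match of letters is not a binding site, and sites of different motifs overlapped in 13 of 32851 promoter windows.

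Heat shock genes, which encode chaperones that keep other proteins folded, were within 2-fold or higher on the FoxO3-labelled array. Of 22 heat shock genes 8 were at least 2-fold higher there, 14 under 2-fold and 0 lower, with a median of 0.56, and the counts were the same with the limit set on the FoxO1-labelled array. Hspb1, a small heat shock protein that guards actin, read 123833 and 95525 against 26866 and 9557, with 22151 and 12795 on the FoxO1-labelled array. Cryab, the small heat shock protein of muscle and lens, read 8805 and 13870 against 1818 and 1927. Hsph1, a partner of Hsp70, read 1636 and 11125 against 609 and 4140, and Hspe1, the mitochondrial cochaperonin, 4842 and 17507 against 2579 and 1740. Hspa4 did not go one way, at -0.05, -3.44 and 0.58.

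Of 18 glycolysis and glucose uptake genes 6 lay 2-fold or more higher on the FoxO3-labelled array, 1 lower and 11 under 2-fold, with a median of 0.14. Slc2a1, the basal glucose transporter, read 11073, 9275 and 15793 against 1550, 3870 and 3056. Hk1 (hexokinase 1) read 1103 and 11858 against 429 and 4048, and Pfkl, a phosphofructokinase, 11278 and 7616 against 3241 and 3154. Pfkm, the muscle phosphofructokinase, was level at 3594 against 3439, and the lower gene was Eno3, the muscle enolase, at 13886 against 28417. Slc16a3, which exports lactate, read 1943 against 387. Of the antioxidant list 5 of 25 were higher and 4 lower, with a median of -0.21. Srxn1, which repairs peroxiredoxins, read 3364 and 1552 against 880 and 151. Mt1 and Mt2, the metallothioneins that bind zinc and copper, were lower, Mt1 at 3057 and 238 against 16787 and 1478 and Mt2 at 1989 against 4691.

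Neuronal genes appeared in both directions. Of 9 in the list that passed the limit 5 were at least 2-fold higher on the FoxO3-labelled array and 2 lower, with a median of 1.20, or 0.19 over all 20 genes. Nefm, the medium neurofilament chain and partner of Nefl, read 6768 against 60.5 in its only probe set, and Tubb3, a neuronal tubulin, 3554 against 548. Stmn2, which destabilizes microtubules, was lower in both probe sets, at 3904 and 8716 against 8210 and 23876. With the limit set on the FoxO1-labelled array the median was -1.26 over 5 genes, since Nefl and Nefm were dim on that array. Among 23 axon guidance genes 9 were lower and 3 higher, with a median of -0.51. Nrp2, a semaphorin receptor, read 736, 1823 and 956 against 1014, 7699 and 4426, and its ligand family member Sema3c 532 and 723 against 1363 and 3094.

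Of 18 chemokine, cytokine and receptor genes 9 were at least 2-fold lower on the FoxO3-labelled array and 1 higher, with a median of -0.81, or -0.27 over all 33 with no limit. Of the 7 with 2 or more member probe sets 3 had agreeing probe sets on the lower side. Cxcl1, a neutrophil chemokine, read 756, 2579 and 1048 against 2629, 5387 and 3374, and Csf1, the macrophage growth factor, 1448, 883 and 4100 against 1680, 2486 and 12103. Ackr3, a scavenger receptor of Cxcl12, was the gene on the higher side. It read 6911 against 11.6 in its only probe set, with 782 on the FoxO1-labelled array, while Cxcl12 itself was lower. Of 12 interferon genes 5 were lower and 2 higher. Ifi27 read 3027 and 225 against 6863 and 4563, and the 3 members of H2-K1, a class I histocompatibility gene, disagreed at 3.40, 1.57 and -2.99. Of 14 Notch pathway genes 4 were higher and 4 lower. Notch1 differed by 1.02 and 1.93 and Notch3 by -3.04 and -0.92, so these receptors stood in opposite order.

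Genes with a single member probe set rest on that probe set alone, whatever their size. Mcpt8, a protease of basophils and mast cells, read 8498 against 42.2, with 263 on the FoxO1-labelled array. Blnk, an adaptor of B cell signalling, read 8730 against 106, and Alox5, which starts leukotriene synthesis in white blood cells, 12395 against 166. These 3 genes are known from blood cells, while Ptprc lay under the floor on both arrays in each of its probe sets. Of mast cell genes, Cpa3 read 997 against 105, Kit 377 and 207 against 36.5 and 43.4, and Ms4a2 23.5 and 81.7 against 150.0 and 138. Their part in the Mcpt8 value was not tested. Of 6 blood and immune cell markers that passed the limit 2 were higher and 1 lower, and the summed signal of all 23 was 20895 against 11905, of which 5 and 6 were under the floor. Without Mcpt8, itself in the list, the sums were 12397 and 11863, so that gene carried most of the difference. Tmcc3 read 4330 against 40.2, but its other probe sets differed by -2.83 to 0.29. Of 9 prostanoid and leukotriene genes, Alox5 among them, 2 were higher and 2 lower. At the low end, Ptgis (prostacyclin synthase) read 143 against 12118, Fam20a, a pseudokinase of the secretory pathway, 45.2 against 6146, and Islr, a secreted protein of mesenchymal cells, 457 against 30895. Mgp (matrix Gla protein), an inhibitor of calcification, read 1046 against 70552 and Lmcd1, a LIM domain protein, 103 against 5525.

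Genes of large housekeeping complexes were mostly within 2-fold. Of 75 respiratory chain and ATP synthase genes 4 were at least 2-fold higher on the FoxO3-labelled array and 3 lower, of 75 mitochondrial ribosomal proteins 6 and 3, and of 37 proteasome subunits 2 and 2. Their medians were -0.05, -0.11 and -0.02. All these shares are under the background of 15.6% and 14.9%. Cytosolic ribosomal proteins stood slightly up, with 8 of 44 higher, 0 lower and a median of 0.38. Rps15 read 167998 and 112892 against 56039 and 61756 and Rps20 57103 and 66571 against 26840 and 26572, while the brightest probe set of Rps9 read 34936 against 43224. Ribosomal protein probe sets can share sequence with pseudogenes. Cholesterol synthesis genes had 2 of 20 higher and 4 lower, with Fdps, which makes farnesyl diphosphate, at 4776 against 18767 and Lss, which closes the sterol rings, at 2405 and 1547 against 1312 and 454. Insulin and IGF signalling had 3 of 20 higher and 2 lower, autophagy and lysosome genes 3 of 28 and 4 of 28, and the Bcl2 family 1 of 13 and 2 of 13. Lamp2, a lysosomal membrane protein, was lower in 3 of its 4 probe sets, at 346, 3175 and 5244 against 1219, 9094 and 28931, and level in the last at 3050 against 3275. The remaining lists, of osteoblast and chondrocyte, adipocyte, endothelial and imprinted genes, had 3, 7, 3 and 6 members, of which 2, 0, 0 and 0 were higher and 0, 1, 0 and 2 lower. Peg3, an imprinted zinc finger gene, differed by -3.26 and -0.91.

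Genes were also counted by chromosome. Chromosome 10 stood apart on the higher side, with a median of 0.54 over 436 genes. Of these 29.8% were at least 2-fold higher on the FoxO3-labelled array and 8.26% on the FoxO4-labelled array. When its genes were cut by order into 4 equal parts, the medians were 0.30, 0.55, 0.68 and 0.53, so the shift ran along the chromosome. With the limit set on the FoxO1-labelled array the median was 0.49 over 400 genes. The FoxO1-labelled array stood at a median of -0.37 against the FoxO3-labelled and 0.11 against the FoxO4-labelled array there. The X chromosome was on the lower side, with a median of -0.36 over 261 genes, 9.96% higher and 24.1% lower, and medians of -0.37, -0.45, -0.15 and -0.36 along its parts. On the X the FoxO1-labelled array stood at a median of 0.07 against the FoxO3-labelled and -0.41 against the FoxO4-labelled array. Every other chromosome had a median between -0.22 and 0.26, although 21.8% of the genes on chromosome 16 were at least 2-fold lower. Chromosome copy number in the colonies was not tested.

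**Figure D5:**
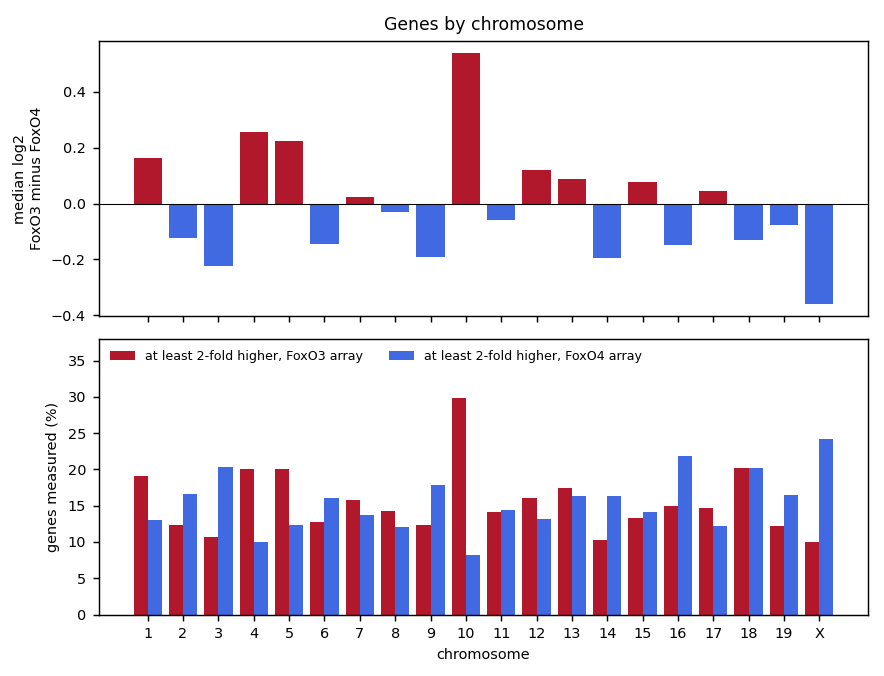
Median log2 difference of the measured genes of each chromosome (upper bars) and the percent of its genes at least 2-fold higher on either array (lower bars, red for the FoxO3-labelled and blue for the FoxO4-labelled array). Chromosome 10 reaches 0.54 with 29.8% higher, and the X chromosome -0.36 with 24.1% lower.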

How the data were processed

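Expression was measured on 3 Affymetrix mouse arrays, 1 per C2C12 line, and each array was assigned to its line by its title. The deposited table gives an intensity (signal) per probe set, made by the authors with GCOS per the submitters' processing notes. Neither its version nor its settings nor a genome build is given in the sources used here. In the deposited table the 2% trimmed mean of each array is 1000. Deposited ratio and change call columns were not used. Of 45101 probe sets, 34958 had 1 gene symbol in the platform annotation, 932 several and 9211 none, and 34754 of the first matched the RefSeq gene table (GRCm38.p6), used for current symbols and chromosomes.

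On each array, signals below the 20th percentile were raised to it before log2 was taken. Each gene took the median of its member probe sets, and genes were counted past 2-fold (1 on the log2 scale). The limit of 1000 on either of the 2 arrays favours probe sets that differ, so other filters were tried. With 1 array per line no test was run, and the number of arrays limits the precision. The members, the 43 gene lists and the rules were chosen with earlier results of these data known. Genes are named if they are FoxO genes, or among the 20 at either end with agreeing probe sets, ranked by the probe set nearest to 0, or among the 6 at either end with 1 member, or among up to 4 members past 2-fold in each direction, plus the 2 nearest to 0, of each list. Genes used only to check cell identity, to describe promoters, or as relatives or regulators of named genes fall outside it. Motifs were searched in RefSeq promoter windows, and only the FoxO core was chosen with the lists. The CArG, E2F and C/EBP-ATF elements were added after values were seen. The calculations were checked on simulated arrays with known differences. Alternatives covered the signal limit, floor, scaling, probe sets, gene summary and threshold. Calculations ran in Python 3.11.15 with pandas 2.3.3 and numpy 2.4.6, and figures were drawn with matplotlib 3.10.9.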

Additional observations from a re-analysis of the deposited data

How the results depend on the processing

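No paired analysis was possible because each line has 1 array. The counts of genes at least 2-fold higher on the FoxO3-labelled array, higher on the FoxO4-labelled array, and with agreeing probe sets in each direction were 1376, 1309, 110 and 152. They moved with the signal limit, to 2394, 2373, 189 and 227 at 500, to 812, 749, 71 and 96 at 2000, to 507, 492, 37 and 47 with 1000 on both arrays, and to 2992, 3097, 256 and 293 with no limit. A 3-fold threshold gave 632, 617, 35 and 60. Without probe sets named x_at or s_at, which can match several transcripts, 69 genes agreed on the higher side. Other floors, quantile normalization and median centring kept these 4 counts within 1.5 times, and the mean and the brightest probe set, run for the first 2 only, did too. Sign changes were listed only for list medians of larger size and for named genes at least 2-fold apart in the main setting. Among such lists 2 medians turned. They became 0.31 for matricellular genes with 1000 on both arrays, and -1.26 for neuronal genes with the limit on the FoxO1-labelled array. Some smaller list medians also turned, such as blood and immune cell markers from 0.22 to -0.71 with that last limit. Among named genes, signs turned for Id2 (0.24) and Sdhc (-0.32) with 1000 on both arrays, for Rps9 (-0.31), Rsad2 (-0.18) and Traf6 (-2.38) with the limit on the FoxO1-labelled array, and for Tmcc3 (-0.44) at 500. With no limit they turned for Ccnd2, Epha4 and Ltbp1 (-0.0806 each), Sema7a (-0.40), Sesn1 (0.034) and Tmcc3 (-0.44). They turned for Sdhc (-0.32) without x_at and s_at probe sets, and for Id2 (0.24), Rps9 (-0.31), Sdhc (-0.32) and Sesn2 (-1.51) by the brightest probe set. By construction these settings change which probe sets make up a gene's value and which genes make up a list. Counting each list or gene once per alternative, 445 recomputed list medians and 3405 recomputed gene differences moved by less than the spread between probe sets allows, and 46 and 145 by more. The blood marker sum without Mcpt8 was added after seeing the data. Dim signals limit what can be read: 80 and 88 member probe sets lay under the floor on the arrays labelled FoxO3 and FoxO4, so their differences are lower bounds in size.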

Other observations

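Probe sets with no gene symbol or with several were left out of every count above. Array controls aside, 1348 of them reached the signal limit. Of these, 270 were at least 2-fold higher on the FoxO3-labelled array (20.03%) and 227 on the FoxO4-labelled array (16.8%).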
